A study of Mus musculus with 12 samples.

Results

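Livers taken 12 h after a 70% partial hepatectomy were compared with livers of sham-operated mice across all genes, to see which transcripts had changed before the cells copy their DNA. The comparison rests on 6 of the 12 libraries of the study, the 3 titled PHx12h and the 3 titled Control, chosen by those titles alone. All animals were wild-type C57/BL6J mice. The 12 h livers are the tissue left after the resection, and the sham livers come from mice operated on without resection. For the sham group the labels give no time after operation, and for neither group an age or a sex. They also leave unsaid whether replicates are different mice, so p-values here describe variation among libraries, which may be technical. The libraries titled 3 h and 6 h after the same resection entered the model and show what each gene did earlier. The third library titled 6 h has 7 h in its time field.

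Hepatocytes of an adult liver are quiescent, and resection sends them back into the cell cycle. Cytokines and immediate early genes mark the passage from quiescence into G1. Growth factors then raise D-type cyclins, whose kinases CDK4 and CDK6, followed by cyclin E with CDK2, phosphorylate the retinoblastoma proteins and set free the E2F factors. E2F factors switch on the genes that load the replicative helicase onto origins, build the replication fork and supply deoxynucleotides. In mouse liver, DNA synthesis in hepatocytes is known to follow on the second day.

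Library totals were 16429539 to 16629328 counts in the 12 h livers and 16079192 to 16661784 in sham livers. Levels are given as the authors' FPKM, that is, fragments per kilobase of gene length, scaled for depth. Differences are log2 values fitted by edgeR to the counts, 12 h minus sham, with their standard error (SE). A gene is said to have risen or fallen where its edgeR adjusted p was under 0.05. Of 11451 genes with 1 FPKM or more in at least 3 of the 12 libraries, 1547 (13.5%) rose and 1751 (15.3%) fell at 12 h, and 556 (4.86%) and 746 (6.51%) did so by 2-fold or more. Mitochondrially encoded transcripts took 7.52% to 8.18% of the counts in the 12 h livers. In sham livers they took 6.10% and 5.38% in replicates 2 and 3 but 11.7% in replicate 1, which thus stood apart. Without it 2597 genes rose and 2666 fell. Without 12 h replicate 3 the counts were 981 and 1131. Against 6 h, 1387 genes (12.1%) were higher and 1441 (12.6%) lower at 12 h. Scaling by library totals gave 3122 and 561 there, as the median difference of all genes became 0.26 on the log2 scale in place of -0.04, so a difference from 6 h is read against that shift. Fewer cells of a type and less RNA per cell cannot be told apart in bulk tissue.

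The G1 cyclins were among the clearest changes at 12 h. Ccnd1 (ENSMUSG00000070348, chr7:144929931-144939925, minus strand; positions are on GRCm38), encoding cyclin D1, the partner of CDK4 and CDK6, was at 30.3, 26.3 and 22 FPKM in the 12 h livers, against 1.7, 4.32 and 3.3 FPKM in sham livers. All 12 h livers lay far above all sham livers. The log2 difference was 3.06 ± 0.32 (SE, n = 3 libraries per group, edgeR adjusted p = 2.58e-05). At 6 h Ccnd1 was at 12.5, 6.34 and 7.94 FPKM, and the 12 h level was higher by 1.57 on the log2 scale (edgeR adjusted p = 0.00214). Ccne1 (ENSMUSG00000002068, chr7:38097984-38107534, minus strand), encoding cyclin E1, the partner of CDK2, was at 2.93, 3.7 and 3.34 FPKM in the 12 h livers, against 0.133, 0.263 and 0.332 FPKM in sham livers. It was low in every sham liver and close together in the 12 h livers, with a log2 difference of 3.74 ± 0.37 (edgeR adjusted p = 1.61e-05). Ccne2, for cyclin E2, rose by 2.12, Cdc25a, the phosphatase that activates CDK2, by 1.49, Cdk2 by 0.68 and Ccnd3, for cyclin D3, by 0.77 on the log2 scale. Cdk7, for a kinase that activates the others, rose by 0.63. Cdk4 rose by 0.59 ± 0.20 (edgeR adjusted p = 0.0381), but missed the threshold under several alternatives. It was 0.43 without sham replicate 1, 0.63 without sham replicate 2, 0.64 without 12 h replicate 1, 0.46 without 12 h replicate 2 and 0.67 without 12 h replicate 3, and the adjusted p was 0.0536 with the replicate block, 0.0664 with library totals, 0.0536 in the fit of all genes with 12 counts and 0.0721 with only the 6 libraries compared. Cdk6 differed from sham by 0.36 ± 0.17 (edgeR adjusted p = 0.138), though it passed the threshold without sham replicate 1, at 0.47. It was higher than at 6 h by 1.26.

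The filter on FPKM admits a gene that is high only at 12 h, so the members of the cell cycle groups were also counted in a fit of every gene with 12 or more counts over the 12 libraries. In that fit 8.5% of 19799 genes rose and 9.53% fell, and the median of all genes was -0.042 on the log2 scale. Of 12 G1 genes 7 rose in it, at a median of 0.65. With the filter on FPKM 11 were tested, 3 of them only because of their 12 h level, and 8 rose: Ccnd1, Ccnd3, Ccne1, Ccne2, Cdc25a, Cdk2, Cdk4 and Cdk7. The remaining D-type cyclin, Ccnd2, lay under the FPKM filter at 0.724, 0.949 and 0.708 FPKM in the 12 h livers, against 0.507, 0.6 and 0.58 FPKM in sham livers. It differed by 0.48 ± 0.22 on the log2 scale (edgeR adjusted p = 0.143).

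Of 8 inhibitors of these kinases 4 passed the filter on FPKM. Cdkn1a (ENSMUSG00000023067, chr17:29090976-29100727, plus strand), encoding p21, was at 0.883, 0.832 and 0.52 FPKM in the 12 h livers, against 0.497, 0.484 and 1.2 FPKM in sham livers. The groups overlapped, and the log2 difference was 0.02 ± 0.32 (edgeR adjusted p = 0.978). At 6 h the same gene stood at 55.8, 54 and 53.6 FPKM, so that the 12 h level was lower by 6.17 on the log2 scale (edgeR adjusted p = 9.69e-07). Cdkn1b, for p27, differed from sham by -0.10 ± 0.19 (edgeR adjusted p = 0.745) and Cdkn2c, for p18, by 0.27 ± 0.24 (edgeR adjusted p = 0.45). The signs of these 3 small differences turned when single libraries were left out. Cdkn2d, for p19, differed by -0.32 ± 0.35 (edgeR adjusted p = 0.521). Cdkn1c, for p57, lay under the filter, with 24 counts at 12 h and 51 in sham livers (-1.09 ± 0.63, edgeR adjusted p = 0.257). A p above the threshold does not show that the levels were equal.

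Several E2F and retinoblastoma family genes rose as well. E2f1 (ENSMUSG00000027490, chr2:154559407-154569892, minus strand), an activator of S-phase genes, was at 1.56, 3.4 and 1.56 FPKM in the 12 h livers, against 0.317, 0.784 and 0.659 FPKM in sham livers. Its 12 h values lay above all sham values, with 12 h replicate 2 the highest, and the log2 difference was 1.87 ± 0.39 (edgeR adjusted p = 0.00343). The activator E2f3 rose by 0.96 and Tfdp1, whose product DP1 pairs with E2F proteins, by 1.17 on the log2 scale. The atypical repressor E2f8 rose by 1.69. That value was 1.45 without sham replicate 2, 2.60 without sham replicate 3 and 1.34 without 12 h replicate 2, the first and the last of these missing the threshold, as did the fit of only the 6 libraries compared (1.70, edgeR adjusted p = 0.0513). The pocket proteins that bind E2F moved in opposite directions. Rbl1, for p107, was at 1.44, 2.03 and 1.86 FPKM in the 12 h livers, against 0.697, 0.251 and 0.252 FPKM in sham livers, a log2 difference of 2.15 ± 0.42 (edgeR adjusted p = 0.00208, and 2.80 without sham replicate 1). Rbl2, for p130, the pocket protein of quiescent cells, was lower by 0.65 on the log2 scale (edgeR adjusted p = 0.0313), and missed the threshold at -0.38 without sham replicate 1, -0.61 without 12 h replicate 1 and -0.51 without 12 h replicate 2, with only the 6 libraries compared (edgeR adjusted p = 0.111) and with limma on log2(FPKM + 1) (limma adjusted p = 0.0539). Of 17 genes in the group 8 rose and 1 fell in the fit of all genes with 12 counts (median 0.70). With the filter on FPKM 9 of 15 tested genes rose, and 3 of those tested passed only through their 12 h level.

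The genes that load the helicase follow, and for 4 of them the bases before the gene start are shown because they hold a match to an E2F site. Sequences are from RefSeq on GRCm38.p6, 250 bases before the start, given 5′ to 3′ on the gene's strand, with the matches in capitals. The letters searched on both strands were TTTCCCGC, TTTCGCGC, TTTGCCGC and TTTGGCGC. The windows, each before the RefSeq start of its gene, are chr8:75109259-75109508, plus strand, for Mcm5, chr1:128359706-128359955, minus strand, for Mcm6, chr5:138171884-138172133, minus strand, for Mcm7, and chr11:98907901-98908150, plus strand, for Cdc6.
Mcm5: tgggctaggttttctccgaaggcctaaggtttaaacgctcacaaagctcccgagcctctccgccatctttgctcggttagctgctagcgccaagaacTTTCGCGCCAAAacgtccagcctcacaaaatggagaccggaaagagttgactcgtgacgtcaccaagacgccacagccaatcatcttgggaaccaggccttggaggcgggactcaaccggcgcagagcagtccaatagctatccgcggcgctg
Mcm6: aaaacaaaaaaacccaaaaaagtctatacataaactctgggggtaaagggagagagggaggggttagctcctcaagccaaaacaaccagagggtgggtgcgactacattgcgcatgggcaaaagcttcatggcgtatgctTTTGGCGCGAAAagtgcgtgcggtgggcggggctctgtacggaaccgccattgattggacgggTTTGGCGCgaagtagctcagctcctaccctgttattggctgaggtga
Mcm7: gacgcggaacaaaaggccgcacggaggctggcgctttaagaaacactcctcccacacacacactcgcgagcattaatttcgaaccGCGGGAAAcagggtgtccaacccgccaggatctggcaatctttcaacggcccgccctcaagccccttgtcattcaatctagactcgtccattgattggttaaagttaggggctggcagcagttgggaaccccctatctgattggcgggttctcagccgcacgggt
Cdc6: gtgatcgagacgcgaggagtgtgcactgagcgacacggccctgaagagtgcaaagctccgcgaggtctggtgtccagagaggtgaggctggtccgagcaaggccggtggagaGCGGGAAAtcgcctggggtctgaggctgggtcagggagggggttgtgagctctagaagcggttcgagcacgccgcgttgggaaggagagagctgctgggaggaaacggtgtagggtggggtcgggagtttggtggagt
In Mcm5 and Mcm6, matches on opposite strands overlap and are printed as 1 run. The Mcm6 window holds 3 matches and the Mcm5 window 2, while those of Mcm7 and Cdc6 hold 1 each, read on the opposite strand. Such a match was found before 7 of 15 licensing genes with a sequence (46.7%), against 583 of 27025 genes (2.16%) and 318 of 8126 tested genes (3.91%). In the E2F and retinoblastoma group it was found before 5 of 13 genes (38.5%), among the chromatin assembly genes before 4 of 18 (22.2%), among the fork genes before 4 of 31 (12.9%) and among the nucleotide synthesis genes before 1 of 35 (2.86%), near the share of all genes. A match is a stretch of letters and not a measured binding site, and binding was not measured in these livers.

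Origin licensing was the group with the largest median rise among the cell cycle groups tested. Mcm5 (ENSMUSG00000005410, chr8:75109569-75128439, plus strand), a subunit of the MCM helicase whose promoter is shown above, was at 4.88, 10.7 and 6.77 FPKM in the 12 h livers, against 0.368, 0.808 and 0.417 FPKM in sham livers. Every 12 h liver was far above every sham liver, 12 h replicate 2 most of all. The log2 difference was 3.79 ± 0.38 (edgeR adjusted p = 2.06e-05), and at 6 h Mcm5 was still at 0.299, 0.293 and 0.443 FPKM. Mcm6 was at 5.03, 13.5 and 8.94 FPKM in the 12 h livers, against 1.19, 0.968 and 0.736 FPKM in sham livers, a log2 difference of 3.24 ± 0.31 (edgeR adjusted p = 1.45e-05). Its order among the 12 h livers was the same as that of Mcm5. The other subunits rose too, Mcm2 by 3.44, Mcm4 by 3.07, Mcm3 by 2.85 and Mcm7 by 1.31 on the log2 scale, so that all 6 subunits of the helicase ring were higher. Cdt1, which loads the ring, was at 3.76, 5.89 and 5.05 FPKM in the 12 h livers, against 0.394, 1.15 and 0.596 FPKM in sham livers (2.76 ± 0.36 on the log2 scale, edgeR adjusted p = 0.000155). Its inhibitor Gmnn, for geminin, rose by 1.73, and the origin recognition subunit Orc6 by 0.98, though Orc6 missed the threshold when sham replicate 2 (0.90) or 12 h replicate 2 (0.74) was left out.

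The loader Cdc6 lay under the filter but showed one of the steepest changes of the group, at 0.993, 3.06 and 1.64 FPKM in the 12 h livers, against 0.0788, 0.0308 and 0.0398 FPKM in sham livers. The sham livers were near 0, with 541 counts in all at 12 h and 14 in sham livers. The fit of all genes with 12 counts gave a log2 difference of 5.21 ± 0.50 (edgeR adjusted p = 3.52e-06). Orc1, the subunit of the origin recognition complex that is made anew in each cycle, had 113 counts at 12 h and 4 in sham livers. Mcm10, which helps to start the fork, differed from sham by -0.19 ± 0.33 (edgeR adjusted p = 0.702) and changed sign when single libraries were left out, though it was higher than at 6 h by 2.17. In all, 12 of 17 licensing genes rose in that fit (median 1.72). Of 15 that passed the filter on FPKM, 10 rose, and 4 had passed only through their 12 h level. Against 6 h, 10 of 15 were higher at 12 h, beside 12.1% of all tested genes. With library totals 11 were higher, beside 3122 of all 11451 tested genes. The 4 that had passed only through their 12 h level are among the 15, so the filter itself favours these counts against 6 h.

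Proteins of the replication fork rose next to them. Pcna (ENSMUSG00000027342, chr2:132249162-132253314, minus strand), the sliding clamp of the DNA polymerases, was at 12.2, 27.6 and 18.5 FPKM in the 12 h livers, against 8.17, 9.39 and 8.36 FPKM in sham livers. The groups did not overlap, although 12 h replicate 1 lay within 1.5-fold of the sham livers and 12 h replicate 2 was the highest, and the log2 difference was 1.16 ± 0.23 (edgeR adjusted p = 0.00225). The helicase cofactors Cdc45 and Gins3 rose by 2.92 and 2.90 on the log2 scale, and Gins3 by 3.73 without sham replicate 3. Wdhd1, which couples the helicase to the priming polymerase, rose by 2.81, Lig1, which joins Okazaki fragments, by 2.32, and the primase subunit Prim1 by 1.77. Timeless, of the fork protection complex, rose by 1.99, the single-strand binding subunit Rpa2 by 1.98, the polymerase delta subunit Pold1 by 1.68 and the clamp loader subunit Rfc3 by 1.32. Lig1 was at 1.47, 3.07 and 1.98 FPKM in the 12 h livers, against 0.4, 0.353 and 0.536 FPKM in sham livers, with no overlap. Of 38 fork genes 26 rose in the fit of all genes with 12 counts, at a median of 1.19. The filter on FPKM left 27, 6 of them through their 12 h level alone, of which 19 rose. Under it lay Pole, the catalytic subunit of polymerase epsilon, at 0.49, 1.67 and 1.15 FPKM in the 12 h livers, against 0.264, 0.241 and 0.168 FPKM in sham livers, which differed by 2.28 ± 0.44 on the log2 scale (edgeR adjusted p = 0.00185). The topoisomerase Top2a, also under it, was at 0.756, 1.91 and 1.42 FPKM in the 12 h livers, against 0.3, 0.256 and 0.104 FPKM in sham livers, with no overlap (2.62 ± 0.39, edgeR adjusted p = 0.000237).

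**Figure D1:**
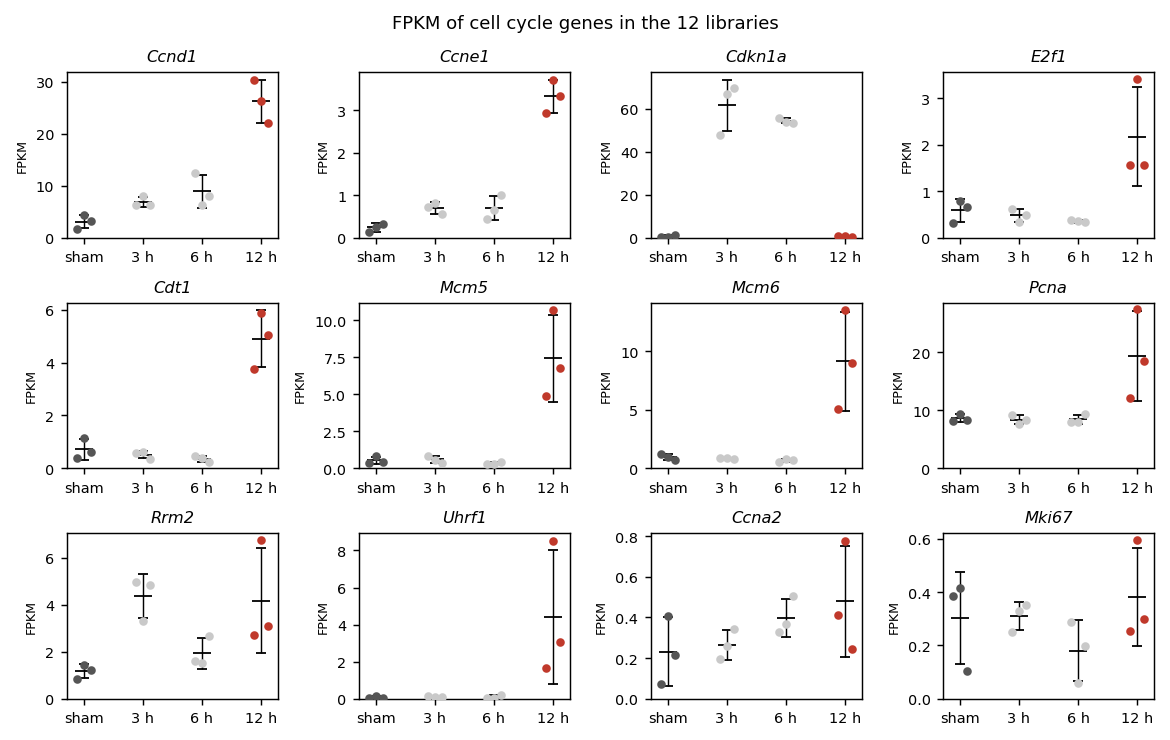
FPKM (vertical axes, linear, each from 0) of 12 cell cycle genes in sham livers and in livers 3, 6 and 12 h after resection; points are libraries, bars the mean and SD of 3. Ccnd1 was at 30.3, 26.3 and 22 FPKM in the 12 h livers and 1.7, 4.32 and 3.3 FPKM in sham livers, Cdkn1a was high at 3 and 6 h but not at 12 h, and 12 h replicate 2 was the highest for most replication genes.

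Nucleotide synthesis was mixed. Rrm2 and Rrm1, the subunits of ribonucleotide reductase, which makes deoxynucleotides, rose by 1.81 and 1.77 on the log2 scale. Rrm2 was at 2.71, 6.74 and 3.07 FPKM in the 12 h livers, against 0.849, 1.46 and 1.22 FPKM in sham livers, with every 12 h liver above every sham liver and 12 h replicate 2 apart from the others. Ctps, for CTP synthase, rose by 2.33, Cad, for the first steps of pyrimidine synthesis, by 1.10, and Ppat, for the first step of purine synthesis, by 0.93. Of the thymidylate genes, Tk1, Tyms and Dut did not rise against sham. Tk1, for thymidine kinase of the salvage route, was at 1.1, 2.09 and 0.679 FPKM in the 12 h livers, against 3.65, 4.63 and 5.15 FPKM in sham livers, lower in all 12 h livers by 1.80 on the log2 scale (edgeR adjusted p = 0.00102). Exons of Tk1 overlap those of Afmid on the other strand, so the Tk1 counts may hold reads of Afmid. Mthfd1, a folate enzyme, fell by 0.90. Tyms, for thymidylate synthase, differed from sham by 0.29 ± 0.26 (edgeR adjusted p = 0.435) and Dut, for dUTPase, by 0.29 ± 0.28 (edgeR adjusted p = 0.474). Against 6 h, Dut was higher by 1.77 on the log2 scale (edgeR adjusted p = 0.00105), and Tyms differed by 0.55 (edgeR adjusted p = 0.146). In the fit of all genes with 12 counts 14 of 39 genes of the group rose and 5 fell. Of 36 tested with the filter on FPKM 14 rose, beside 13.5% of all tested genes. The 5 that fell there were near the 15.3% of all tested genes that fell. The number that fell was 2 without 12 h replicate 3 and 3 without sham replicate 3.

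Genes that copy chromatin and its methylation rose with the fork genes. Uhrf1 (ENSMUSG00000001228, chr17:56303321-56323486, plus strand), which guides the maintenance methyltransferase to newly copied DNA, was at 1.66, 8.5 and 3.04 FPKM in the 12 h livers, against 0.0553, 0.164 and 0.061 FPKM in sham livers. It was almost unread in sham livers, and the spread between the 12 h livers was wide. The log2 difference of 5.51 ± 0.68 (edgeR adjusted p = 9.05e-05) became 6.19 without sham replicate 2 and 4.60 without 12 h replicate 2. Dnmt1, that methyltransferase, rose by 1.10 on the log2 scale, the remodeller Hells by 3.04, the histone chaperone Nasp by 1.43 and the histone acetyltransferase Hat1 by 1.40. Of 22 genes of chromatin assembly 15 rose in the fit of all genes with 12 counts (median 0.67). They include Chaf1a and Chaf1b, subunits of the chromatin assembly factor 1 at the fork, which lay under the filter on FPKM with 398 counts at 12 h and 59 in sham livers for Chaf1a, and with 317 counts at 12 h and 78 in sham livers for Chaf1b. With that filter 12 of 19 rose, 2 of those tested passing through their 12 h level alone.

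Genes of G2 and mitosis were at low levels. In the fit of all genes with 12 counts 9 of 37 rose, at a median of 1.11 on the log2 scale. Only 4 of 37 passed the filter on FPKM, 2 of them through their 12 h level, and the one that rose was Ect2, an exchange factor of cytokinesis, by 2.16 on the log2 scale. Mki67, a marker of cycling cells, was at 0.253, 0.593 and 0.301 FPKM in the 12 h livers, against 0.386, 0.417 and 0.103 FPKM in sham livers. The groups overlapped, and in the fit of all genes with 12 counts its log2 difference was 0.33 ± 0.50 (edgeR adjusted p = 0.709). Ccna2, for cyclin A2, was at 0.411, 0.778 and 0.247 FPKM in the 12 h livers, against 0.0721, 0.408 and 0.217 FPKM in sham livers (1.01 ± 0.53, edgeR adjusted p = 0.21). Foxm1, the factor that drives mitotic genes, and Ccnb1, for cyclin B1, did not pass either, with edgeR adjusted p of 0.395 and 0.668. Ccnb2, for cyclin B2, had 16 counts at 12 h and 64 in sham livers (edgeR adjusted p = 0.08). Members that rose in that fit include Cdk1. This gene of the mitotic kinase was at 0.362, 1.41 and 0.624 FPKM in the 12 h livers, against 0.0835, 0.381 and 0.116 FPKM in sham livers (2.01 ± 0.57, edgeR adjusted p = 0.0221), with 215 counts at 12 h and 53 in sham livers. The checkpoint kinase Ttk had 190 counts at 12 h and 13 in sham livers (3.80 ± 0.72, edgeR adjusted p = 0.00167), and the kinetochore gene Ndc80 had 86 at 12 h and 9 in sham livers (3.19 ± 0.88, edgeR adjusted p = 0.0194). Nuf2, of the same complex, had 99 counts at 12 h and 14 in sham livers (edgeR adjusted p = 0.0634), most of the 99 from 12 h replicate 2, at 0.725 FPKM beside 0.00853 and 0.124 in 12 h replicates 1 and 3.

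The 12 h livers were not at one level in these groups. Among tested members 12 h replicate 2 was the highest of the 12 h livers for 11 of 15 licensing genes, 24 of 27 fork genes, 21 of 36 nucleotide genes and 4 of 4 genes of G2 and mitosis. Its library total, 16429539 counts, was the lowest of the 3. Summed over the 17 licensing genes the level was 67.9, 118 and 91.8 FPKM in the 12 h livers, against 38.7, 34.7 and 34.2 FPKM in sham livers. Summed over the 38 fork genes it was 129, 192 and 150.5 FPKM in the 12 h livers, against 78, 97.1 and 92 FPKM in sham livers. Over the 37 genes of G2 and mitosis it was 15.8, 33 and 18.9 FPKM in the 12 h livers, against 11.1, 18.5 and 11.7 FPKM in sham livers, and here sham replicate 2 lay between 12 h replicates 1 and 3. The G1 cyclins and kinases did not follow that order, with sums of 68.8, 70.3 and 62.5 FPKM in the 12 h livers, against 29.2, 29.5 and 30.1 FPKM in sham livers.

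**Figure D2:**
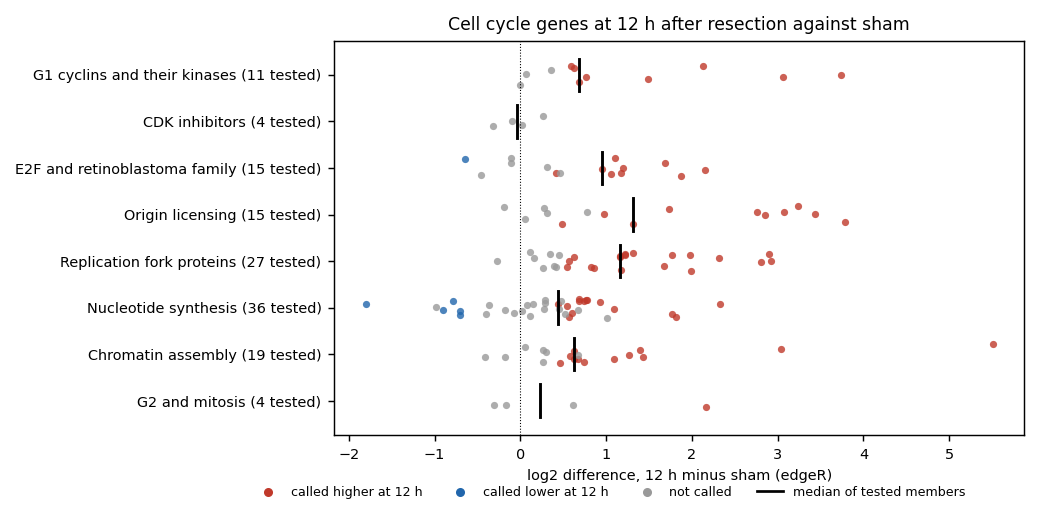
Log2 differences, 12 h minus sham (horizontal axis, edgeR), of the tested genes of 8 cell cycle groups; each point is a gene, red where it rose, blue where it fell, grey where it was not called, and the black bar is the median of tested members. The medians lie at 1.31 for licensing and 1.16 for fork genes, and near 0 for the CDK inhibitors; members that passed the filter only through their 12 h level are included.

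Cell growth genes accompanied the cell cycle genes. Myc, a driver of growth and ribosome synthesis, was at 1.89, 4.88 and 3.54 FPKM in the 12 h livers, against 0.412, 1.35 and 1.47 FPKM in sham livers. The 12 h values all exceeded the sham values, with a log2 difference of 1.65 ± 0.40 (edgeR adjusted p = 0.00796). The MYC and MAX network as a group did not follow Myc. Of its 10 tested genes 2 rose and 3 fell, at a median of -0.38 on the log2 scale. Over all tested genes 13.5% rose and 15.3% fell. Odc1, for the first enzyme of polyamine synthesis, was at 41.2, 43.4 and 48.1 FPKM in the 12 h livers, against 18.9, 17.4 and 14.9 FPKM in sham livers (1.36 ± 0.15, edgeR adjusted p = 3.29e-05), and was above its 6 h level by 0.86 on the log2 scale (edgeR adjusted p = 0.000946). Srm, for spermidine synthase, rose by 1.28 on the log2 scale. Paox, which breaks polyamines down, fell by 1.69, and Oaz1, whose product antizyme directs ornithine decarboxylase to degradation, fell by 1.18. Of 13 tested polyamine genes 5 rose and 2 fell.

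Part of the ribosome biogenesis genes rose, by small steps. Of 65 tested genes 29 rose, against a background of 13.5% of all tested genes, or 18 without 12 h replicate 3, and the median difference was 0.44 on the log2 scale, beside -0.0172 over all genes. Nop58 and Nop56, core proteins of the particles that methylate ribosomal RNA, rose by 1.47 and 1.17. Rrp12, for the export of pre-ribosomes, rose by 1.12, the nucleolar GTPase Gnl3 by 0.96 and nucleolin, Ncl, by 0.70. Nop58 was at 4.16, 4.54 and 4.88 FPKM in the 12 h livers, against 2.18, 1.48 and 1.23 FPKM in sham livers, without overlap. Against 6 h, 4 ribosome biogenesis genes were higher and 24 lower at 12 h, beside 12.1% and 12.6% of all tested genes. With library totals 6 were higher and 5 lower, beside 3122 and 561 of all 11451 tested genes. Ribosomal proteins were near sham. Of 81 tested 6 rose and 1 fell, at a median of -0.01, and the number that rose was 0 without 12 h replicate 2, 1 without 12 h replicate 3, 3 without sham replicate 2 and 2 without sham replicate 3.

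Translation factors rose in part, 17 of 47 (11 without 12 h replicate 3) with a median of 0.33, while 3 fell. The alpha subunit of the initiation factor eIF2, Eif2s1, rose by 0.99 on the log2 scale and the cap-binding Eif4e by 0.87. Eif4ebp2, which holds eIF4E back, fell by 0.98. Of the 20 cytosolic tRNA synthetases 9 rose, among them those for arginine, Rars (0.77), and tryptophan, Wars (0.73), and 2 fell, those for threonine, Tars (-1.12), and cysteine, Cars (-0.79). The number of synthetases that rose was 5 without 12 h replicate 3 and 5 without sham replicate 3. Nuclear transport genes rose in 10 of 27 cases (18 without sham replicate 1), including the exportin Xpo1 (1.13) and the Ran-binding Ranbp1 (1.04). Of 53 splicing factors 12 rose, such as Snrpd1 of the Sm core (0.98) and Hnrnpa1 (0.92), or 20 without sham replicate 1. Of these factors 3 fell, or 0 to 9 when single libraries were left out. Of 36 proteasome genes 7 rose, beside 13.5% of all tested genes, and 1 fell. The number that rose was 3 without 12 h replicate 2, 2 without 12 h replicate 3, 3 without sham replicate 2 and 2 without sham replicate 3. Psmd14, a deubiquitinase of the lid, rose by 0.56.

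Genes of the endoplasmic reticulum, where secreted proteins are folded, rose for both folding and transport. The promoters of 3 of its chaperone genes are shown because they hold the whole endoplasmic reticulum stress element, the site of the factors ATF6 and NF-Y, searched on both strands as CCAAT and CCACG with 9 bases between them and printed in capitals. As above, the 250 bases before the start are from RefSeq on GRCm38.p6, 5′ to 3′ on the gene's strand. The windows are chr2:34771840-34772089, plus strand, for Hspa5, chr10:86705445-86705694, minus strand, for Hsp90b1, and chr15:88819396-88819645, plus strand, for Creld2.
Hspa5: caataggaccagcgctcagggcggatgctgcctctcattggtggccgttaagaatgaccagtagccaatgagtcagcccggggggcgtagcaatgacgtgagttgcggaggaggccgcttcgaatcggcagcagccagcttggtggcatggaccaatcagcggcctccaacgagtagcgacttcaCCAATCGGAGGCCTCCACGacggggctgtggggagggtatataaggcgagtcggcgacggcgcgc
Hsp90b1: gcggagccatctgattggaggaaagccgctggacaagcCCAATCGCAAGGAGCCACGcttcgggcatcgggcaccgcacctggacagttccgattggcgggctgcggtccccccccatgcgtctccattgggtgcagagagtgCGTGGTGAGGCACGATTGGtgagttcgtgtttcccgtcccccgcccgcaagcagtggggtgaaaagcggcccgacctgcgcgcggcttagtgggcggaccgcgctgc
Creld2: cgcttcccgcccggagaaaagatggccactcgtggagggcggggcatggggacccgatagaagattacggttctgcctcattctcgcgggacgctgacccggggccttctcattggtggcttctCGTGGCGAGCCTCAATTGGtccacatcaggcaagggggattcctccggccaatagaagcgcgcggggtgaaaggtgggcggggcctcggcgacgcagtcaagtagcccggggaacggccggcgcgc
The Hsp90b1 window holds 2 matches, 1 on each strand, and the others 1, that of Creld2 on the opposite strand. The element stood before 9 of 25 chaperone genes with a sequence (36%), 5 of which rose, before 16 of 8126 tested genes (0.197%), and before 35 of 27025 genes (0.13%).

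Hspa5 (ENSMUSG00000026864, chr2:34771970-34777547, plus strand), encoding BiP, the main chaperone of the endoplasmic reticulum, was at 376, 318 and 468 FPKM in the 12 h livers, against 143, 171 and 106 FPKM in sham livers. The groups lay well apart, with a log2 difference of 1.46 ± 0.21 (edgeR adjusted p = 0.0003). Creld2 was at 66.9, 61.9 and 70.8 FPKM in the 12 h livers, against 8.27, 22.7 and 15.5 FPKM in sham livers (2.09 ± 0.30, edgeR adjusted p = 0.000252), again without overlap. Manf, a secreted stress-induced factor, rose by 1.80 on the log2 scale, the chaperone Hyou1 by 1.30 and Hsp90b1, for GRP94, by 1.09. In all 15 of 32 tested genes of this group rose, at a median of 0.45. Of 60 genes for translocation into the reticulum and transport out of it, 32 rose and 1 fell, at a median of 0.46, and 21 without 12 h replicate 3 rose. Examples are the cargo receptor Tmed3 (1.34), the GTPase Arf4 (1.14), the channel subunit Sec61g (1.14) and the translocon-associated Ssr3 (1.12). Cytosolic chaperones rose in 12 of 28 cases, or 6 without 12 h replicate 3, beside 13.5% of all tested genes. Among them were Hsp90aa1 (0.91) and Hspa8 (0.89, no longer called at 0.68 without 12 h replicate 3). Another 3 fell, and the lowest difference in the group was -1.62 on the log2 scale.

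Few immediate early genes, which respond to a stimulus without new protein synthesis, were above sham at 12 h. Of 30 tested 2 rose, beside 13.5% of all tested genes, and 5 fell, near the 15.3% of all tested genes that fell. Without sham replicate 1, 13 fell. Lower than at 6 h were 17 of them, beside 12.6% of all tested genes. With library totals 13 were lower, beside 561 of all 11451 tested genes. Egr1, a zinc finger factor, was at 2.98, 1.81 and 1.47 FPKM in the 12 h livers, against 17.2, 5.84 and 3.19 FPKM in sham livers. The 12 h values were all below the sham values, among which sham replicate 1 was the highest. The log2 difference of -2.06 ± 0.64 (edgeR adjusted p = 0.0265) missed the threshold at -1.12 without sham replicate 1, -1.97 without 12 h replicate 2 and -1.86 without 12 h replicate 3, and with limma on log2(FPKM + 1) (limma adjusted p = 0.0898). Dusp1, a phosphatase of MAP kinases, fell by 2.12 on the log2 scale. Bbc3, a p53 target that promotes apoptosis, fell by 2.24. Of 16 tested p53 targets 1 rose and 2 fell, shares not above the 13.5% and 15.3% of all tested genes.

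Part of the IL-6 and STAT3 pathway, which primes hepatocytes for division, was above sham. Socs3 (ENSMUSG00000053113, chr11:117966079-117970047, minus strand), the feedback inhibitor, was at 17.2, 15.2 and 14.9 FPKM in the 12 h livers, against 0.692, 3.53 and 2.05 FPKM in sham livers. All 12 h livers exceeded the sham livers, with a log2 difference of 2.89 ± 0.38 (edgeR adjusted p = 0.00016, and 3.49 without sham replicate 2). At 6 h it was at 58.7, 43.1 and 38.6 FPKM, and the 12 h level was lower by 1.55 on the log2 scale (edgeR adjusted p = 0.00636). The oncostatin M receptor Osmr rose by 2.29 against sham and the interleukin 1 receptor Il1r1 by 1.70, whereas the leukaemia inhibitory factor receptor Lifr fell by 1.66. Stat3 rose by 0.52, and was lower than at 6 h (-1.15 on the log2 scale, 12 h minus 6 h). Of 18 tested genes 5 rose and 2 fell against sham, beside 13.5% and 15.3% of all tested genes. Against 6 h, 1 was higher and 12 were lower, beside 12.1% and 12.6% of all tested genes. With library totals 1 was higher and 8 were lower, beside 3122 and 561 of all 11451 tested genes.

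Among growth factor genes, Hgf, for hepatocyte growth factor, was at 2.06, 1.73 and 1.96 FPKM in the 12 h livers, against 1.02, 0.703 and 0.441 FPKM in sham livers. The groups did not overlap, and the log2 difference was 1.40 ± 0.29 (edgeR adjusted p = 0.0031). Its receptor Met differed by 0.29 ± 0.20 (edgeR adjusted p = 0.291) and the epidermal growth factor receptor Egfr by 0.28 ± 0.21 (edgeR adjusted p = 0.365). Both passed the test without sham replicate 1, at 0.62 and 0.58 on the log2 scale. Of 16 tested genes of HGF and EGF receptor signalling 2 rose and 4 fell, beside 13.5% and 15.3% of all tested genes. The number that fell stayed at 4 whichever library was left out. Inhbb, for a subunit of activin B, a growth-limiting factor of the TGF-beta family, was at 1.44, 1.42 and 1.53 FPKM in the 12 h livers, against 0.332, 0.265 and 0.244 FPKM in sham livers (2.37 ± 0.26, edgeR adjusted p = 3.55e-05). All 12 h livers were above all sham livers. Of 24 tested genes of the TGF-beta and activin response 4 rose and 0 fell, at a median of -0.05 on the log2 scale. That is near the 13.5% of all tested genes that rose. The number was 1 to 6 when single libraries were left out.

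Acute phase genes, which the liver switches on in inflammation, were high at 12 h. Of 34 tested acute phase genes 31 rose and 1 fell, with a median log2 difference of 1.99, and they took 13.5% to 15.2% of the counts in the 12 h livers, against 4.39% to 5.11% in sham livers. Lcn2 (ENSMUSG00000026822, chr2:32384633-32388252, minus strand), for the iron-scavenging lipocalin 2, was at 638, 480.2 and 721 FPKM in the 12 h livers, against 0.426, 0.82 and 0.971 FPKM in sham livers. The sham livers held almost none of it, with a log2 difference of 9.67 ± 0.47 (edgeR adjusted p = 5.28e-08). The serum amyloid genes Saa2 and Saa1, close copies whose reads may be shared, rose by 9.45 and 7.12 on the log2 scale. Apcs, for serum amyloid P, rose by 4.12, the plasma carrier Orm2 by 5.33 and the protease inhibitor Serpina3n by 4.41, while A2m, another protease inhibitor, rose by 6.37 (5.55 without 12 h replicate 3). Orm2 and Serpina3n also belong to families of near-identical copies. Mt1, a metal-binding metallothionein, was at 1011, 923 and 912 FPKM in the 12 h livers, against 3.4, 15 and 16.4 FPKM in sham livers, and although it was above sham by 6.34, it was below its 6 h level by 2.54 on the log2 scale (edgeR adjusted p = 0.000498). Against 6 h 1 acute phase gene was higher and 20 were lower, beside 12.1% and 12.6% of all tested genes. With library totals 1 was higher and 10 were lower, beside 3122 and 561 of all 11451 tested genes. Plasma proteins that fall in inflammation fell in 8 of 18 cases and rose in 3, beside 15.3% and 13.5% of all tested genes. Those that fell include the corticosteroid carrier Serpina6 (-2.49) and transthyretin, Ttr (-1.29). Albumin, Alb, was at 15573, 15963 and 17189.7 FPKM in the 12 h livers, against 27609, 25282 and 22877 FPKM in sham livers, lower by 0.65 on the log2 scale (edgeR adjusted p = 0.00312).

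Many metabolic genes of the mature hepatocyte fell. Fatty acid synthesis had a median of -1.01 on the log2 scale, and 15 of 26 genes fell, against a background of 15.3% of all tested genes. Srebf1 (ENSMUSG00000020538, chr11:60199089-60222581, minus strand), the regulator of lipid synthesis, was at 4.94, 7.38 and 4.9 FPKM in the 12 h livers, against 30.9, 40.9 and 41.9 FPKM in sham livers. The 12 h livers all lay below the sham livers, with a log2 difference of -2.73 ± 0.23 (edgeR adjusted p = 5.5e-06). The elongase Elovl3 fell by 4.50 and Acss2, which makes acetyl-CoA from acetate, by 3.07. Mlxipl, for the glucose-sensing factor ChREBP, fell by 2.46. Glucose handling was split. G6pc, for the glucose-6-phosphatase that lets hepatocytes release glucose, was at 68.7, 43.9 and 25.9 FPKM in the 12 h livers, against 109, 174 and 279 FPKM in sham livers (-2.03 ± 0.48, edgeR adjusted p = 0.00686). Pfkfb3, an activator of glycolysis, rose by 2.31 on the log2 scale. Of 28 genes 7 rose and 12 fell, beside 13.5% and 15.3% of all tested genes. Igfbp1, a secreted binder of insulin-like growth factors, was at 28.2, 11.8 and 13 FPKM in the 12 h livers, against 55.9, 64.5 and 73.4 FPKM in sham livers, below sham by 1.88 and below 6 h by 5.42 on the log2 scale.

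Genes of drug and bile acid metabolism fell alongside. Over all tested genes 15.3% fell. Of 31 tested cytochrome P450 genes 19 fell (median -0.91), or 12 without 12 h replicate 3, such as Cyp2c55 (-2.05) and Cyp1a2 (-1.78). Of 44 conjugation enzymes 23 fell (median -0.69), while Nnmt, which methylates nicotinamide, rose by 3.45 and the sulfotransferase Sult1a1 by 2.21. Of 27 bile acid genes 14 fell (median -0.65). Abcb11 (ENSMUSG00000027048, chr2:69238282-69342616, minus strand), the bile salt export pump, was at 33.7, 41.9 and 29.8 FPKM in the 12 h livers, against 182, 126 and 124 FPKM in sham livers, all 12 h livers far below sham (-2.04 ± 0.18 on the log2 scale, edgeR adjusted p = 6.89e-06). Cyp8b1, which makes cholic acid, fell by 1.89. Cyp7a1, for the enzyme that limits how fast bile acids are made, was at 13.6, 29.9 and 45.8 FPKM in the 12 h livers, against 39.6, 9.61 and 13.6 FPKM in sham livers. The groups overlapped (0.50 ± 0.53, edgeR adjusted p = 0.513), and sham replicate 1 held the highest sham value. Without it Cyp7a1 was higher at 12 h by 1.34 on the log2 scale and passed the test. At 6 h it had been at 0.37, 0.218 and 0.123 FPKM.

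Cholesterol synthesis was above its 6 h level. Against sham 3 of 27 genes rose and 8 fell (median -0.16), beside 13.5% and 15.3% of all tested genes. The number that rose was 5 without 12 h replicate 1, 1 without 12 h replicate 2, 1 without 12 h replicate 3 and 5 without sham replicate 1. Against 6 h 18 were higher and 2 lower, beside 12.1% and 12.6% of all tested genes. With library totals 20 were higher and 1 lower, beside 3122 and 561 of all 11451 tested genes. Insig1, which holds the regulator SREBP back, was at 34, 72 and 65.4 FPKM in the 12 h livers, against 151, 123 and 104 FPKM in sham livers, and at 17.2, 23 and 20.8 FPKM at 6 h. Among urea cycle and amino acid breakdown genes, of which 49 were tested, 8 rose and 24 fell (median -0.48). Mat1a, which makes the methyl donor S-adenosylmethionine, rose by 2.30 on the log2 scale, and Csad, which makes taurine, fell by 2.24. Fatty acid oxidation genes rose in 11 of 43 cases and fell in 4, or rose in 5 without 12 h replicate 1 and fell in 10 without sham replicate 1. The share that fell was not above the 15.3% of all tested genes. Cyp4a14, a fatty acid hydroxylase under PPAR alpha, rose by 3.09 (4.41 without sham replicate 1 and 2.45 without 12 h replicate 1). The nuclear-encoded respiratory chain was lower in 15 of 72 genes (median -0.37), a count that rests on single libraries, being 3 without 12 h replicate 1, 2 without 12 h replicate 3, 46 without sham replicate 1, 2 without sham replicate 2 and 3 without sham replicate 3. Cycs, for cytochrome c, rose by 1.17.

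**Figure D3:**
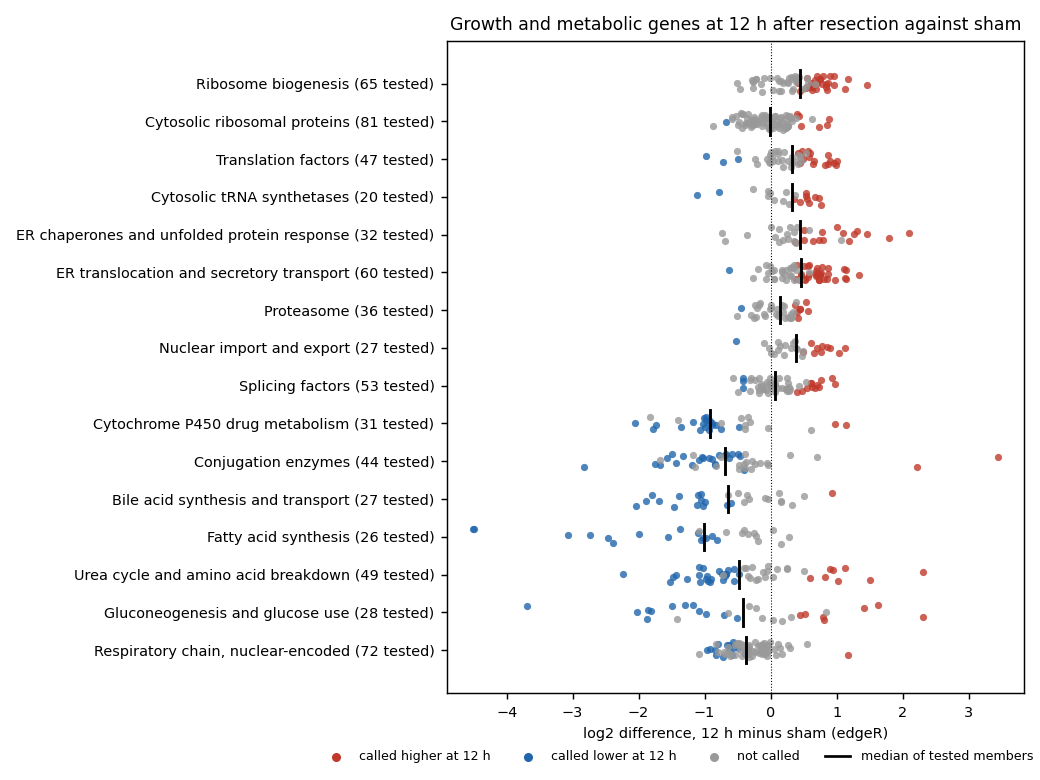
Log2 differences, 12 h minus sham (horizontal axis, edgeR), of the tested genes of 16 growth and metabolic groups; each point is a gene, red where it rose, blue where it fell and grey where it was not called, and the black bar is the median. Medians are above 0 for ribosome biogenesis (0.44) and secretory transport (0.46) and below 0 for fatty acid synthesis (-1.01) and cytochrome P450 genes (-0.91).

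Some clock genes differed from sham by large steps. Arntl and Npas2, activators of the circadian clock, fell by 3.42 and 4.85 on the log2 scale (Npas2 -4.09 without sham replicate 1). With limma on log2(FPKM + 1) the difference of Npas2 was -0.78 and was not called (limma adjusted p = 0.0618). Arntl was at 0.187, 0.211 and 0.261 FPKM in the 12 h livers, against 3.9, 1.62 and 1.55 FPKM in sham livers, with all 12 h livers below all sham livers. The repressor Ciart rose by 2.84 (3.50 without sham replicate 3) and the repressor Nr1d1 fell by 1.92. Dbp, an output factor of the clock, was at 15, 17.1 and 13.7 FPKM in the 12 h livers, against 2.08, 10.2 and 7.11 FPKM in sham livers (1.23 ± 0.39, edgeR adjusted p = 0.0302). It missed the threshold at 1.30 without sham replicate 3, 1.24 without 12 h replicate 1, 1.14 without 12 h replicate 2 and 1.30 without 12 h replicate 3, and was 0.81 without sham replicate 1. With only the 6 libraries compared its edgeR adjusted p was 0.0872. At 6 h Dbp had been at 0.164, 0.39 and 0.197 FPKM. Of 20 tested clock genes 5 rose, beside 13.5% of all tested genes, and 3 fell, near the 15.3% of all tested genes that fell. The number that rose was 3 without 12 h replicate 1, 3 without 12 h replicate 2, 3 without 12 h replicate 3 and 3 without sham replicate 3. The labels give no time of day, and 12 h after the operation and the time of day at sampling cannot be told apart.

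Some of the largest single changes, chosen by size alone, follow. Coq8a, for a protein of coenzyme Q synthesis, fell to 2.62, 3.96 and 1.63 FPKM in the 12 h livers, against 102, 77.1 and 75.5 FPKM in sham livers, with every 12 h liver below every sham liver (-4.96 ± 0.32 on the log2 scale, edgeR adjusted p = 6.3e-07). Pitx3, a homeobox factor, fell by 7.03 (-10.07 without 12 h replicate 1), but its exons overlap those of Elovl3 on the other strand. The ubiquitin ligase Rnf125 fell by 3.85 (-3.11 without sham replicate 1), the transporter Abca8a by 3.55 and the water channel Aqp8 by 3.38. Ly6d, a surface protein, rose by 6.62 (7.75 without sham replicate 2), the steroid-forming enzyme Cyp17a1 by 3.95 and the neutrophil attractant Cxcl1 by 3.88 (4.80 without sham replicate 1). Ly6d was at 45.7, 50.3 and 30.3 FPKM in the 12 h livers, against 0, 0.867 and 0.349 FPKM in sham livers, without overlap. Mup13 (3.43) and Serpina3m (3.30) rose too, both members of multigene families among whose copies reads may be shared. Among the most abundant genes of the 12 h livers, Fgl1, a hepatocyte-secreted protein named for its likeness to fibrinogen, was at 348, 345 and 325 FPKM in the 12 h livers, against 47.2, 49.4 and 37.9 FPKM in sham livers, and Fn1, for fibronectin, rose by 1.25. Catalase, Cat, fell by 1.42, the carbonic anhydrase Car3 by 2.44 and apolipoprotein E, Apoe, by 1.26.

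**Figure D4:**
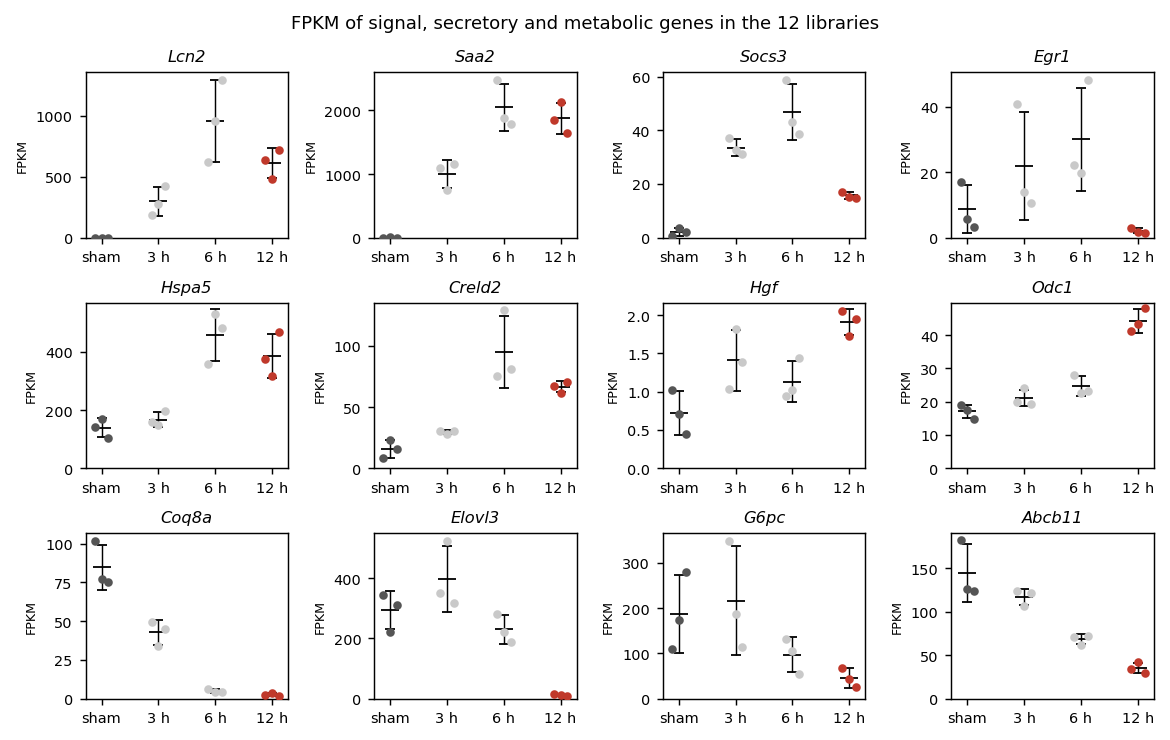
FPKM (vertical axes, linear, each from 0) of 12 signal, secretory and metabolic genes in sham livers and in livers 3, 6 and 12 h after resection; points are libraries, bars the mean and SD of 3. Lcn2 and Hspa5 were high at 6 and 12 h and Socs3 was lower at 12 h than at 6 h, while Coq8a and Elovl3 were at their lowest at 12 h.

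Markers of the cell types in the liver were read beside these changes. Over all tested genes 13.5% rose and 15.3% fell against sham. The hepatocyte list summed to 35739, 36149.6 and 38298 FPKM in the 12 h livers, against 48423, 53807 and 53732 FPKM in sham livers, and 1 of its 20 genes rose and 8 fell (5 without 12 h replicate 3, 5 without sham replicate 2 and 5 without sham replicate 3). Neutrophil markers summed to 1195, 1118 and 1253 FPKM in the 12 h livers, against 579, 437 and 519 FPKM in sham livers, nearly all of it Lcn2 and Wfdc21, a secreted protease inhibitor at 549.9, 629.7 and 523 FPKM in the 12 h livers, against 576, 433 and 515 FPKM in sham livers. S100a8, a calcium-binding protein of myeloid cells, was at 2.18, 2.45 and 1.94 FPKM in the 12 h livers, against 0.763, 0.232 and 0.375 FPKM in sham livers, and its partner S100a9 at 3.42, 4.09 and 5.15 FPKM in the 12 h livers, against 0.564, 1.03 and 0.498 FPKM in sham livers. They rose by 2.24 and 2.56 on the log2 scale. With Lcn2 they were the 3 of 7 tested neutrophil markers that rose. The other 4 were not called, and the lowest difference in the list was -0.96. The defining neutrophil genes Ly6g and Cxcr2 were near 0, with 2 and 16 counts at 12 h and 1 and 6 in sham livers. Macrophage markers summed to 118, 132 and 106 FPKM in the 12 h livers, against 155, 202 and 159 FPKM in sham livers. Of 16 tested 1 rose, the scavenger receptor Marco (2.76, and 3.41 without sham replicate 2), and 6 fell, including the Kupffer cell gene Clec4f (-1.12) and Adgre1, for F4/80 (-1.21). T, B and NK cell markers summed to 2.05, 5.06 and 2.59 FPKM in the 12 h livers, against 11.2, 8.16 and 10.6 FPKM in sham livers.

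Endothelial markers summed to 53.1, 64 and 52.8 FPKM in the 12 h livers, against 64.4, 69.9 and 78.3 FPKM in sham livers, and stellate cell markers to 80.3, 75.8 and 65.1 FPKM in the 12 h livers, against 70.3, 86.3 and 96.2 FPKM in sham livers. Of 19 tested stellate cell markers 5 rose and 2 fell, beside 13.5% and 15.3% of all tested genes, at a median of -0.40 on the log2 scale. Those that rose include Hgf and the growth factor receptor Pdgfra (1.35), while the collectin Colec11 fell by 1.17. Red blood cell markers summed to 89.2, 114 and 112 FPKM in the 12 h livers, against 184, 146 and 169.6 FPKM in sham livers, with the globin gene Hba-a2 lower by 1.44 on the log2 scale. Cholangiocyte markers summed to 24.1, 32 and 29.1 FPKM in the 12 h livers, against 21.1, 22.7 and 20.4 FPKM in sham livers. The part of these shifts in cell types, or of the mitochondrial share of sham replicate 1, in the changes above was not tested.

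The files do not state whether counting used strand. Exons of Acss2, Arf4, Ccnd1, Ccnd3, Ccne2, Cdc45, Cdk4, Cdkn1a, Coq8a, Csad, Dbp, Dusp1, E2f8, Gnl3, Hsp90b1, Manf, Mcm7, Mlxipl, Nop56, Nr1d1, Orc6, Paox, Ppat, Ranbp1, Rbl2, Serpina3m, Srebf1, Stat3, Sult1a1 and Tk1 overlap exons of another tested gene, by the GENCODE M21 annotation, so their counts may hold reads of the neighbour.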

How the data were processed

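PolyA RNA of mouse livers was sequenced from RNA extracted with TRIzol and made into libraries with the NEBNext Ultra RNA kit, per the labels' protocols. The submitters' processing notes name CASAVA 1.8, fastp, HISAT2 2.0.5, featureCounts 1.5.0-p3, DESeq2 1.20.0 and the build GRCm38, without saying what each did. The authors deposited raw read counts per gene for the 12 libraries. They also deposited FPKM values, which equal counts divided by gene length and by a median-ratio size factor, as recomputed from the deposited table. Whether counting used strand is not given in the sources used here.

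Counts were tested with edgeR 4.0.16 (R 4.3.3) by its quasi-likelihood test with TMM factors, in 1 model of 4 groups over the 12 libraries, on genes with at least 1 FPKM in 3 libraries. P-values were adjusted by Benjamini-Hochberg over all 11451 such genes, and the threshold was 0.05. All members were also counted in a fit of 19799 genes with 12 or more counts in all, added after seeing the data, since the fit with no filter gave every gene 1 common spread. The test was first checked on simulated counts. Alternatives were DESeq2 1.42.0, limma 3.58.1 on log2(FPKM + 1) and log2(FPKM + 0.1), other scalings, other filters, a replicate block and leaving out single libraries.

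The 56 gene lists and the members were chosen with earlier results of these data known. Named genes are the 15 largest rises and falls with a mean of 5 FPKM and no overlap between groups, up to 4 called members of each list, any member of the cell cycle and growth lists, a fixed set, and up to 6 abundant genes. A selection of these is given. Cyp7a1, Dbp, Stat3 and Wfdc21 were named after their values were seen. Promoter sequences were matched to genes by symbol. A few members are counted in their lists but not reported singly here.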

Additional observations from a re-analysis of the deposited data

How the results depend on the processing

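Of the 3298 genes called between 12 h and sham, 3260 were called the same way with median-ratio scaling, 3169 with library totals, 3294 with DESeq2, 2969 with limma on log2(FPKM + 1), 2811 with no filter and 2173 with only the 6 libraries compared. Under that last setting 1011 genes rose, as did 19 ribosome biogenesis genes, 3 ribosomal proteins, 8 translation factors, 5 tRNA synthetases and 1 proteasome gene. With no filter 3 ribosomal proteins and 2 proteasome genes rose, and in the fit of all genes with 12 counts, chosen after seeing the data, 4 proteasome genes. With library totals 3122 genes passed as higher and 561 as lower than at 6 h. The cause was not tested.

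Leaving out 1 library at a time gave 981 to 2597 genes that rose and 1131 to 2666 that fell against sham, and 906 to 1148 that were lower than at 6 h. It gave 18 to 36 ribosome biogenesis genes, 0 to 6 ribosomal proteins, 11 to 22 translation factors, 5 to 11 tRNA synthetases, 21 to 37 secretory transport genes and 2 to 9 proteasome genes that rose. Log2 differences that changed sign, none of them called, ranged over -0.21 to 0.60 for Cdkn1a, -0.23 to 0.11 for Cdkn1b, -0.067 to 0.44 for Cdkn2c, -0.072 to 0.50 for Dut, -0.41 to 0.10 for Mcm10 and -0.0066 to 0.47 for Tyms. Of 165 genes named and tested, 147 kept direction and side of the threshold under every alternative run.

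Deviations of same-numbered 12 h and sham libraries from their group means correlated at -0.03, 0.15 and -0.16. With 3 libraries per group the deviations are tied to each other, so these values cannot tell whether replicate numbers pair the samples. A fit with the replicate block called 1400 genes that rose and 1574 that fell, and 4 proteasome genes that rose. With 3 libraries per group and 16079192 to 16661784 counts each, the precision for genes under the filter on FPKM differed between genes and did not follow their counts alone. The standard error of the log2 difference was 0.22 for Ccnd2, with 408 counts at 12 h and 291 in sham livers. It was 0.98 for Nuf2, with 99 counts at 12 h and 14 in sham livers, but 0.53 for the fork gene Cdc7, with 90 and 20.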

Other observations

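Cytoskeletal genes rose in 15 of 34 cases (8 without 12 h replicate 2 and 8 without 12 h replicate 3) and fell in 1, at a median of 0.54 on the log2 scale. Over all tested genes 13.5% rose and 15.3% fell. Krt18, for a keratin of hepatocytes, was at 245, 344 and 334 FPKM in the 12 h livers, against 80.1, 115 and 103 FPKM in sham livers, with all 12 h livers above all sham livers. Its log2 difference was 1.62 (edgeR adjusted p = 8.24e-05). Tpm1, for an actin-binding tropomyosin, rose by 1.23.

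Over all tested genes 15.3% fell and 13.5% rose. Complement and coagulation genes fell in 18 of 41 cases (10 without 12 h replicate 3 and 11 without sham replicate 3) and rose in 7, with a fall of plasma kallikrein, Klkb1 (-2.00). Interferon-stimulated genes fell in 5 of 27 cases (8 without 12 h replicate 2 and 3 without 12 h replicate 3), a share near the 15.3% of all tested genes that fell, including the antiviral Rsad2 (-2.14). Growth hormone dependent genes fell in 12 of 30 cases, among them the male-biased steroid enzyme Hsd3b5 (-2.55, and -3.18 without 12 h replicate 2). Of 20 NRF2 target genes 2 rose and 6 fell (3 without 12 h replicate 1, 3 without 12 h replicate 3, 10 without sham replicate 1 and 3 without sham replicate 3), such as Gclc of glutathione synthesis (-1.44) and Osgin1 (-2.15). The share that rose was not above the 13.5% of all tested genes, and 3 that fell would be near the 15.3%.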
